A study of Mus musculus with 18 samples.

Results

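The Reg genes encode small secreted C-type lectins, and 5 of them, Reg1, Reg3a, Reg3b, Reg3g and Reg4, were followed here in single-cell RNA-seq of mouse ileal epithelium. They were chosen as members of the Reg family, with earlier results of these data known, and are 5 of 32286 features in the count tables. The other Reg genes in those tables, Reg2 and Reg3d, had 0 to 5 and 0 to 9 unique molecular identifiers (UMIs, the counted RNA molecules) per library and were not tested. The study asked what the H3K9 methyltransferase Setdb1 does in Lgr5+ intestinal stem cells and their progeny. Its 8 single-cell libraries formed 4 groups of 2. Lgr5+WT libraries came from Lgr5-GFP-CreERT2 mice and Lgr5+Setdb1KO libraries from Lgr5-GFP-CreERT2/ Setdb1lox/lox mice, both sorted for GFP from the Lgr5 locus. Lineage-traced WT libraries came from Lgr5-GFP-CreERT2/nTnG mice and lineage-traced Setdb1-KO libraries from Lgr5-GFP-CreERT2/ Setdb1lox/lox/nTnG mice, in which Cre turns on nuclear GFP that descendants of Lgr5+ cells keep. All mice were C57Bl6 males aged 60 to 65 days, all carried the Cre allele, and all, controls included, received 1 dose of tamoxifen (70 mg/kg) and were analysed 5 days later. Cre was driven by the Lgr5 knock-in, which is silenced in patches of crypts, so that deletion was mosaic, and the GFP sort enriched for cells of active crypts. The study describes mature enterocytes and mature goblet, Paneth, tuft and enteroendocrine cells of the Lgr5+ sort as co-purifying cells without GFP. It puts them down to the gating and to incomplete enrichment. Whether such cells carried the deletion was not tested here. The methods call the libraries of a group biological replicates, without saying how many mice each held. The p-values measure the spread between these libraries, which edgeR estimates for each gene with help from the other genes tested. With 2 libraries per group, a very small p can rest mostly on this shared spread and not on the gene's own libraries.

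Reg3b and Reg3g are bactericidal lectins of the small intestine. Reg3g binds peptidoglycan of Gram-positive bacteria and helps to keep bacteria away from the epithelial surface, and Reg3b takes part in defence against Gram-negative bacteria. Both are induced by bacterial signals through MyD88 and by interleukin-22 through its receptor and the transcription factor STAT3. Reg1 was first known from regenerating pancreatic islets and is also made by intestinal epithelium, Reg3a is a further member of the Reg3 group, and Reg4 is known as a product of enteroendocrine and deep crypt secretory cells. Absorptive enterocytes of the villus, mucus-making goblet cells, hormone-making enteroendocrine cells and defensin-making Paneth cells all descend from Lgr5+ stem cells at the crypt base.

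Reg1, Reg3a, Reg3b and Reg3g lie with Reg2 and Reg3d in 1 cluster of 6 genes that spans 98.0 kb (chr6:78370885-78468874, build GRCm38.p6, the assembly behind mm10), and Reg4 lies apart (chr3:98222138-98236748, plus strand). Along the cluster the order is Reg3b (plus strand), Reg3d (minus), Reg3a (plus), Reg2 (plus), Reg1 (plus) and Reg3g (minus), so that Reg3b and Reg3g stand at its opposite ends. The 250 bases before the annotated start of Reg3b and Reg3g are shown because these were the members most alike in sequence there, and those of Reg3a because it lies near Reg3b and its level moved the other way over all Lgr5+ barcodes, though not over all lineage-traced barcodes. The sequences are RefSeq's and run 5′ to 3′ on each gene's own strand. Capitals mark 4 motifs on either strand. These are the core promoter box TATAAA, the STAT factor palindrome TTCNNNGAA, the E-box CACCTG and the GATA factor motif AGATAA, which do not overlap each other here. They are shown for Reg3b (chr6:78370635-78370884, plus strand), Reg3g (chr6:78468875-78469124, minus strand) and Reg3a (chr6:78380459-78380708, plus strand).
Reg3b: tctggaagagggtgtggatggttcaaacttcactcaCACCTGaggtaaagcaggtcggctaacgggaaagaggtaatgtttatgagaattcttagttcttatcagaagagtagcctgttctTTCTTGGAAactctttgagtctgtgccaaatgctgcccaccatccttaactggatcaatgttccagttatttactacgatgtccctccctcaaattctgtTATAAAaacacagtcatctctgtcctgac
Reg3g: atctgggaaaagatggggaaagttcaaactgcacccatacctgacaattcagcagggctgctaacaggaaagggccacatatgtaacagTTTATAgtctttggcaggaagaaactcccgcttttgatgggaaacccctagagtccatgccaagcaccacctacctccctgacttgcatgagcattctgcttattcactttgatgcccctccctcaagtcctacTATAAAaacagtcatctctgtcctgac
Reg3a: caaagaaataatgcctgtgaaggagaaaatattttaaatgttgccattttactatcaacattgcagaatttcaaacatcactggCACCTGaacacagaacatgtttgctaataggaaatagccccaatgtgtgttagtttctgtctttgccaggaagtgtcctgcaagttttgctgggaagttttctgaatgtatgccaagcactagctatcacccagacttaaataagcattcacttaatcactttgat
Reg3b and Reg3g both held TATAAA close to the start, from 29 to 24 bases upstream in Reg3b and from 27 to 22 in Reg3g, and Reg3g held the same letters on the other strand from 161 to 156 bases upstream. Reg3b also held TTCNNNGAA from 129 to 121 bases upstream and CACCTG from 214 to 209, and Reg3a held CACCTG alone, from 166 to 161. Of 32851 windows of the same kind over all RefSeq starts, 12.4% held TATAAA, 7.02% TTCNNNGAA, 17.2% CACCTG and 9.99% AGATAA. The upstream windows of Reg3b and Reg3g were identical at 68.9% of aligned positions (177 of 257), while the other pairs among the 7 Reg genes lay between 47.8% and 58.5%. In their transcripts Reg3b and Reg3g were identical at 68.6% of positions and shared a longest run of 35 bases. A read that lay wholly within that run could not be given to 1 of them by its sequence. How far this touches their values was not tested. The motifs were chosen with the sequences in view and are a description only.

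The files held 16881518 to 81876035 UMIs per library. Barcodes with 1000 (Lgr5+ sort) or 500 (lineage-traced sort) to 18000 UMIs and under 5% mitochondrial UMIs were kept, which left 2894 to 11423 barcodes per library, with median UMIs per barcode of 4686 to 9336 in the Lgr5+ sort and 961 to 2085 in the lineage-traced sort. Levels are given as CPM, the counts per 1000000 UMIs of those barcodes. Barcodes with at most 100 UMIs were taken as free RNA, the RNA outside cells that enters every droplet. Paneth cell defensins made up 3.80% to 7.91% of free RNA in the Lgr5+ sort, 35.1% and 37.1% in lineage-traced WT and 15.5% and 15.8% in lineage-traced Setdb1-KO. The level that free RNA alone would give in a class was therefore set from the defensins found in that class, except in Paneth-like cells, which defensins define, and is given beside the class levels the results turn on. This counts every defensin UMI of such a class as free RNA. The study reports several defensin genes as active in Setdb1-KO stem cells, so that the expected level there may be too high. Any 2 libraries shared 3 to 34 kept barcodes, at most 0.449% of the smaller library. UMIs of Setdb1 were the check on genotype, but the floxed exon 3 lies away from the 3′ end that was counted, so that transcripts without it still give UMIs and the check settles nothing. The study tested for loss of that exon by PCR on sorted GFP+ cells from both mouse lines, which is not analysed here. Setdb1 was at 11.35 and 9.93 CPM in Lgr5+WT and 5.32 and 6.21 CPM in Lgr5+Setdb1KO (log2 fold change -0.85 ± 0.144 SE, edgeR adjusted p = 0.047, past the threshold in 6 of 11 alternatives), and at 6.115 and 4.21 CPM in lineage-traced WT and 10.45 and 7.85 CPM in lineage-traced Setdb1-KO (0.24 ± 0.234, adjusted p = 0.603). The effect differed between the sorts (lineage-traced minus Lgr5+, 1.09 ± 0.273, adjusted p = 0.0327). Of the classes in which Setdb1 was tested, it passed in Lgr5+ dividing cells (-0.97 ± 0.173, adjusted p = 0.0366) and missed the threshold in Lgr5+ stem-like (-1.06 ± 0.287, 0.195), Lgr5+ goblet-like (-0.38 ± 0.298, 0.957) and lineage-traced dividing cells (0.90 ± 0.495, 0.749).

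Over all kept barcodes of the Lgr5+ sort, Reg3b was lower and Reg3a and Reg4 were higher in Setdb1-KO than in WT, while in the lineage-traced sort Reg1, Reg3a, Reg3b and Reg3g were all lower in Setdb1-KO. In the Lgr5+ sort 3 of 5 members passed the test (183 of 13662 genes, 1.34%, did), and in the lineage-traced sort 4 of 5 (8.73% of 12205 genes did). Per library, the 1% of barcodes richest in a member held 22.7% to 93.3% of its UMIs. The highest share was that of Reg3a in lineage-traced Setdb1-KO replicate 1. With 75 UMIs in all and 49 barcodes in that 1%, it would be high by counting alone. A sum over a library cannot tell fewer cells of a type from less RNA per cell, which is why the classes follow.

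Reg3b stood at 781 and 1114 CPM in Lgr5+WT and at 454 and 391 CPM in Lgr5+Setdb1KO (30078, 46204, 12530 and 23981 UMIs). The 1% of barcodes richest in it (48, 62, 29 and 115 barcodes) held 60.0%, 40.5%, 67.9% and 51.9% of these UMIs. Lineage-traced libraries held Reg3b at 1147 and 1973 CPM in WT and at 428 and 608 CPM in Setdb1-KO (1239, 1819, 560 and 531.5 CPM in free RNA). Neither sort had overlap between genotypes. Its log2 fold change was -1.17 ± 0.197 (SE) in the Lgr5+ sort (edgeR adjusted p = 0.047) and -2.11 ± 0.417 in the lineage-traced sort (adjusted p = 0.00617). The first call was lost without Lgr5+Setdb1KO replicate 1 (adjusted p = 0.0931) or replicate 2 (0.0558), with no filter on low counts (0.131) and with the replicate block (0.0934), and the second without lineage-traced WT replicate 2 (0.149).

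Reg3g, its partner lectin, stood at 562 and 760 CPM in Lgr5+WT and at 171 and 388.5 CPM in Lgr5+Setdb1KO. Its lineage-traced levels were 1463 and 2664 CPM in WT and 502 and 743 CPM in Setdb1-KO (1271, 2384, 637 and 631 CPM in free RNA). Setdb1-KO libraries lay below WT in both sorts, but in the Lgr5+ sort the 2 Setdb1-KO libraries differed from each other and the change (-1.21 ± 0.391) missed the threshold (adjusted p = 0.182). Among lineage-traced libraries Reg3g fell by 2.25 ± 0.438 on the log2 scale (adjusted p = 0.00563), a call lost without WT replicate 2 (0.138).

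Reg1 stood at 258 and 320 CPM in Lgr5+WT against 456 and 251 CPM in Lgr5+Setdb1KO, which overlapped (0.275 ± 0.243, adjusted p = 0.619). Its lineage-traced levels were 149 and 153 CPM in WT and 32.6 and 42.1 CPM in Setdb1-KO (171, 128, 51.0 and 31.4 CPM in free RNA), and fell by 2.52 ± 0.3 (adjusted p = 0.000136). Reg3a stood at 22.65 and 19.0 CPM in Lgr5+WT and at 59.3 and 34.9 CPM in Lgr5+Setdb1KO, and rose by 1.17 ± 0.195 (adjusted p = 0.046), a call lost without Lgr5+WT replicate 1 (0.108) or replicate 2 (0.133), with no filter on low counts (0.133) and with the replicate block (0.0655). The direction was the opposite among lineage-traced libraries. Reg3a was at 20.0 and 32.2 CPM in WT and 8.34 and 11.5 CPM in Setdb1-KO there (15.5, 25.1, 8.65 and 9.64 CPM in free RNA), and fell by 1.87 ± 0.31 (adjusted p = 0.00188). Both calls of Reg1 and Reg3a in the lineage-traced sort held without each library in turn.

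Reg4 stood at 54.75 and 75.8 CPM in Lgr5+WT and at 164.5 and 204 CPM in Lgr5+Setdb1KO, and rose by 1.505 ± 0.213 (adjusted p = 0.0306). That call was lost without Lgr5+WT replicate 1 (adjusted p = 0.056) and with no filter on low counts (0.105). Lineage-traced Reg4 was at 114.7 and 104.7 CPM in WT and at 178 and 111 CPM in Setdb1-KO (-0.16 ± 0.27, adjusted p = 0.783; 0.40 without TMM normalization).

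**Figure D1:**
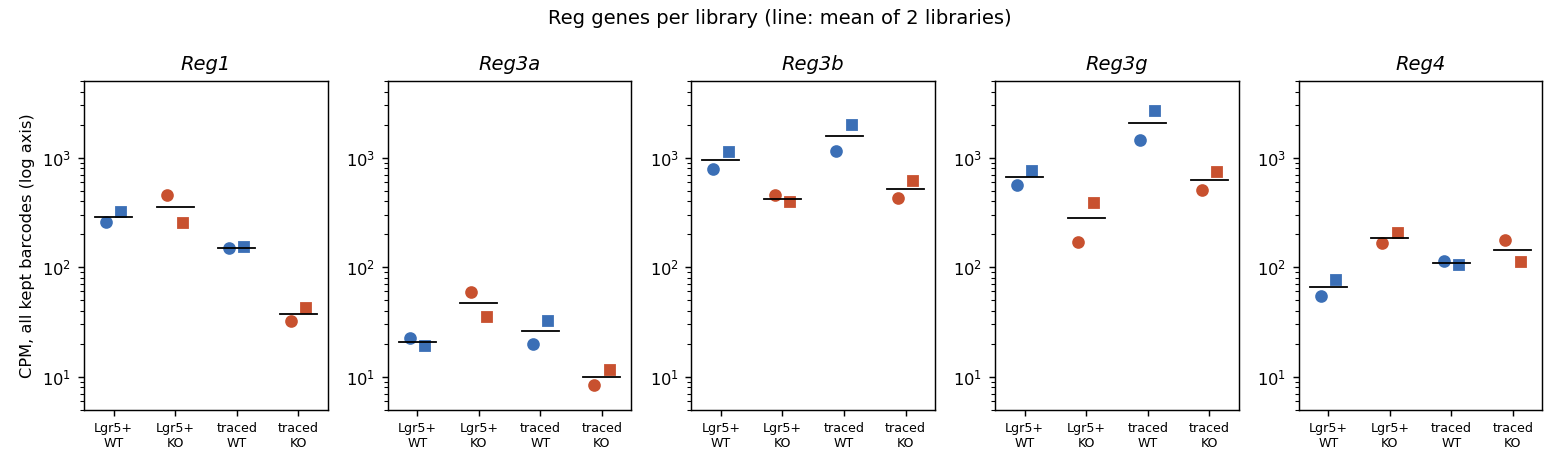
Level of each Reg gene over all kept barcodes of each library, in CPM on a log axis. Blue is WT and red Setdb1-KO, circles are replicate 1 and squares replicate 2, and each black line is the mean of 2 libraries. Reg3b lies at 781 and 1114 CPM in Lgr5+WT and at 391 and 454 CPM in Lgr5+Setdb1KO, and Reg1 falls from 149 and 153 CPM to 32.6 and 42.1 CPM in the lineage-traced sort.

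The lineage-traced values depend on scaling in size. TMM, the edgeR normalization, centres the bulk of genes, whereas plain library totals put the median of all 12205 genes at 0.536 (log2), and calls split into 188 higher and 878 lower with TMM but 3316 higher and 491 lower without it. Defensins, at 32.9% and 30.6% of kept UMIs in WT and 7.01% and 4.80% in Setdb1-KO, moved with that shift. Without TMM the 4 members that fell were still lower, by 2.01 (Reg1), 1.36 (Reg3a), 1.59 (Reg3b) and 1.73 (Reg3g) as log2 fold changes, and each still passed the test. The levels of these members in free RNA were lower in Setdb1-KO too, and the part of free RNA in these falls was not tested.

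Each barcode was placed in a class by the summed UMIs of marker genes, and levels were summed per library and class. In the Lgr5+ sort there were 7 classes with at least 20 cells in every library, and in the lineage-traced sort 6, without tuft-like cells. Enterocyte-like cells, for example, numbered 94 and 264 in Lgr5+WT, 274 and 468 in Lgr5+Setdb1KO, 915 and 241 in lineage-traced WT and only 34 and 129 in lineage-traced Setdb1-KO, or 11.6% and 6.21% against 0.706% and 1.26% of lineage-traced barcodes. Classes cut from a marker score are ranges rather than types. Of enterocyte-like cells, 23 of 94 and 44 of 264 in Lgr5+WT and 43 of 274 and 90 of 468 in Lgr5+Setdb1KO lay within 20% above the cut. In the lineage-traced sort these were 116 of 915 and 25 of 241 in WT against 11 of 34 and 25 of 129 in Setdb1-KO. Lineage-traced Paneth-like cells lay near the cut more often in Setdb1-KO (66 of 125 and 50 of 115) than in WT (154 of 838 and 71 of 223). For stem-like cells the numbers were 103 of 271 and 109 of 284 against 82 of 260 and 20 of 62, and these differences were not tested. Between 23.9% and 35.0% of Lgr5+ barcodes and between 58.1% and 76.4% of lineage-traced barcodes reached no class. Those barcodes carried 36.6% to 49.4% of Reg3b and Reg3g UMIs in the Lgr5+ sort, more than their share of cells, and 42.3% to 74.3% in the lineage-traced sort, so that the lineage-traced class values rest on a minority of cells. By their defensins, free RNA was put at 68.1% of the no-class UMIs in lineage-traced WT replicate 2. It was put at 23.7% to 37.2% in the other lineage-traced libraries. Barcodes in no class may include Paneth cells under the cut, whose own defensins would raise these shares.

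Reg3b was highest in enterocyte-like cells. It stood there at 9295 and 4563 CPM in Lgr5+WT and at 1630 and 1500 CPM in Lgr5+Setdb1KO, where free RNA alone would give 10.3 to 40.4 CPM. In stem-like cells it stood at 109 and 386 CPM in WT and 55.0 and 181 CPM in Setdb1-KO. In each library the enterocyte-like level was above every other class, but across libraries the Setdb1-KO levels overlapped those of WT barcodes in no class (1454 and 1879 CPM) and of the 28 immune-like cells of Lgr5+WT replicate 1 (1951 CPM). Relative to stem-like cells Reg3b was higher in enterocyte-like cells by 4.75 ± 0.446 on the log2 scale and in goblet-like cells by 1.98 ± 0.398 (edgeR, adjusted p = 2.49e-12 and 3.26e-05). Goblet-like cells stood at 852 and 1020 CPM in WT and 268 and 354 CPM in Setdb1-KO, where free RNA would give 125, 207, 45.4 and 48.9 CPM.

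Reg3b was also uneven within the enterocyte-like class. A single cell of Lgr5+WT replicate 1 held 2426 of the 7711 UMIs in that class, and the most in 1 cell of Lgr5+Setdb1KO replicate 1 was 1047 of 5077. With each cell thinned to 1000 UMIs, 55.3% and 47.0% of enterocyte-like cells in Lgr5+WT kept a Reg3b UMI, against 19.7% and 22.7% in Lgr5+Setdb1KO (72.3%, 76.1%, 48.2% and 41.0% unthinned, median depths 8404, 6738, 11380 and 5258 UMIs). In tuft-like cells, shown for comparison, the thinned shares were 2.94%, 8.77%, 2.17% and 4.22% (unthinned 19.1%, 16.7%, 12.0% and 8.44%, median depths 5505, 3988, 6692 and 3190 UMIs). Tuft-like Reg3b stood at 34.3, 139, 251 and 69.2 CPM where free RNA would give 38.5, 88.3, 15.1 and 29.5 CPM, so that these cells are not a plain background. Among enterocyte-like cells the difference between genotypes thus appeared in how many cells held Reg3b as well as in the sum.

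Reg3g was also highest in enterocyte-like cells, followed by goblet-like cells. It stood at 4232 and 1961 CPM in enterocyte-like cells of Lgr5+WT and 466 and 1316 CPM in those of Lgr5+Setdb1KO, and at 864 and 958 against 191.5 and 375 CPM in goblet-like cells. These 2 classes overlapped each other, and free RNA would give 3.598 to 25.01 CPM in the first and 15.8 to 128 CPM in the second. Barcodes in no class stood at 956 and 1299 CPM in WT and 238 and 564 CPM in Setdb1-KO, above goblet-like cells in each library. The 28 immune-like cells of Lgr5+WT replicate 1 stood at 1741 CPM, above its goblet-like cells. Mixed barcodes of Lgr5+Setdb1KO replicate 1 stood at 760 CPM, above its enterocyte-like cells. Against stem-like cells (106 and 258 CPM in WT, 38.8 and 135.5 CPM in Setdb1-KO), Reg3g was higher by 4.05 ± 0.31 in enterocyte-like, 2.34 ± 0.29 in goblet-like, 2.42 ± 0.311 in Paneth-like and 0.86 ± 0.28 in dividing cells (edgeR adjusted p from 5.89e-15 to 0.0119, the last 0.0514 without Lgr5+WT replicate 2 and 0.185 in DESeq2). The Paneth-like value was 1.36 without TMM (adjusted p = 6.01e-05), where the median of all genes stood at -1.24. In Paneth-like cells Reg3g stood at 324 and 555 CPM in WT and 179 and 288 CPM in Setdb1-KO, under its level in free RNA in each library (521, 683, 206 and 326 CPM).

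Within enterocyte-like cells, those with a Reg3b UMI more often had a Reg3g UMI. In Lgr5+WT 92.65% and 84.1% of Reg3b-positive cells held Reg3g against 76.9% and 60.3% of the others, and in Lgr5+Setdb1KO 67.4% and 75.0% against 55.6% and 49.3%. The same order held in the 4 lineage-traced libraries. Deeper cells show more of every gene, and the part of depth in these shares was not tested.

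Reg1 and Reg3a were highest in enterocyte-like cells, and far lower in the other classes. Reg1 stood at 5204 and 4368 CPM in enterocyte-like cells of Lgr5+WT and at 3421 and 3713 CPM in those of Lgr5+Setdb1KO, and none of the other 6 classes exceeded 86.7 CPM. Barcodes in no class stood at 159 to 476 CPM. Thinned to 1000 UMIs, 62.8%, 58.3%, 48.2% and 50.9% of enterocyte-like cells held a Reg1 UMI, against 0.850%, 1.48%, 1.02% and 1.90% of stem-like cells (unthinned 74.5%, 76.1%, 68.25% and 67.7% against 6.03%, 9.35%, 8.32% and 5.94%, with median depths of 5258 to 11380 against 3593 to 7826 UMIs). Stem-like Reg1, at 11.5 to 34.9 CPM, lay near what free RNA would give (10.7 to 14.6 CPM) in the first replicate of each genotype, at 11.5 and 11.6 CPM. Reg1 exceeded stem-like cells by 8.01 ± 0.312 on the log2 scale in enterocyte-like cells, 1.499 ± 0.262 in dividing and 1.56 ± 0.272 in goblet-like cells (edgeR adjusted p = 1.22e-24, 1.07e-05 and 3.33e-06). Reg3a stood at 524 and 215 CPM in WT and 412.3 and 412.4 CPM in Setdb1-KO enterocyte-like cells and at no more than 21.3 CPM in the other 6 classes (18.7 to 37.55 CPM in no class), and exceeded stem-like cells by 7.71 ± 0.218 (adjusted p = 2.05e-29).

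Reg4 marked the secretory side. Enteroendocrine-like cells stood at 640 and 1177 CPM in Lgr5+WT and 2344 and 3570 CPM in Lgr5+Setdb1KO, and Paneth-like cells at 1383 and 1343 CPM and 2154 and 1214 CPM. These 2 classes overlapped each other and none of the other 5, goblet-like cells came next (at most 109 CPM in WT, 166 and 225 CPM in Setdb1-KO), and enterocyte-like cells were lowest at 2.41 to 11.2 CPM, close to free RNA (2.07 to 10.4 CPM). Against stem-like cells Reg4 was higher by 8.46 ± 0.245 in Paneth-like (7.55 without TMM), 7.12 ± 0.235 in enteroendocrine-like and 4.29 ± 0.221 in goblet-like cells (edgeR adjusted p = 9.69e-29, 4.27e-27 and 1.45e-20).

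The 2 Reg4 classes differed in how the gene was spread over cells. Thinned to 1000 UMIs, 63.0%, 67.0%, 78.8% and 63.0% of Paneth-like cells held a Reg4 UMI, but only 9.43% and 7.65% of enteroendocrine-like cells in Lgr5+WT and 14.0% and 22.7% in Lgr5+Setdb1KO, against 0% to 1.496% of enterocyte-like cells. Unthinned the shares were 93.9% to 97.4% in Paneth-like (median depths 6562 to 10270 UMIs), 10.4% to 25.3% in enteroendocrine-like (2408 to 5352) and 2.13% to 4.70% in enterocyte-like cells (5258 to 11380). Single enteroendocrine-like cells held up to 398 Reg4 UMIs. A minority of these cells therefore carried the level of that class.

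Counted over the class comparisons, 16 of 30 pairs of member and class in the Lgr5+ sort were higher than in stem-like cells and none lower. In dividing cells 4 of 5 members rose (42.2% of 11634 genes passed in either direction), in enterocyte-like cells 4 (64.0%), in goblet-like cells 5 (66.4%), in Paneth-like cells 2 (38.2%), in enteroendocrine-like cells 1 (64.6%) and in tuft-like cells 0 (45.3%). These backgrounds are high, so that the counts carry little beside the sizes. In Paneth-like cells the values of Reg1, Reg3a and Reg3b were above stem-like cells with TMM (0.64, 0.48 and 0.92, none passing) and below without it (-0.53, -0.81 and -0.18), since plain totals put the median of all genes there at -1.24.

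**Figure D2:**
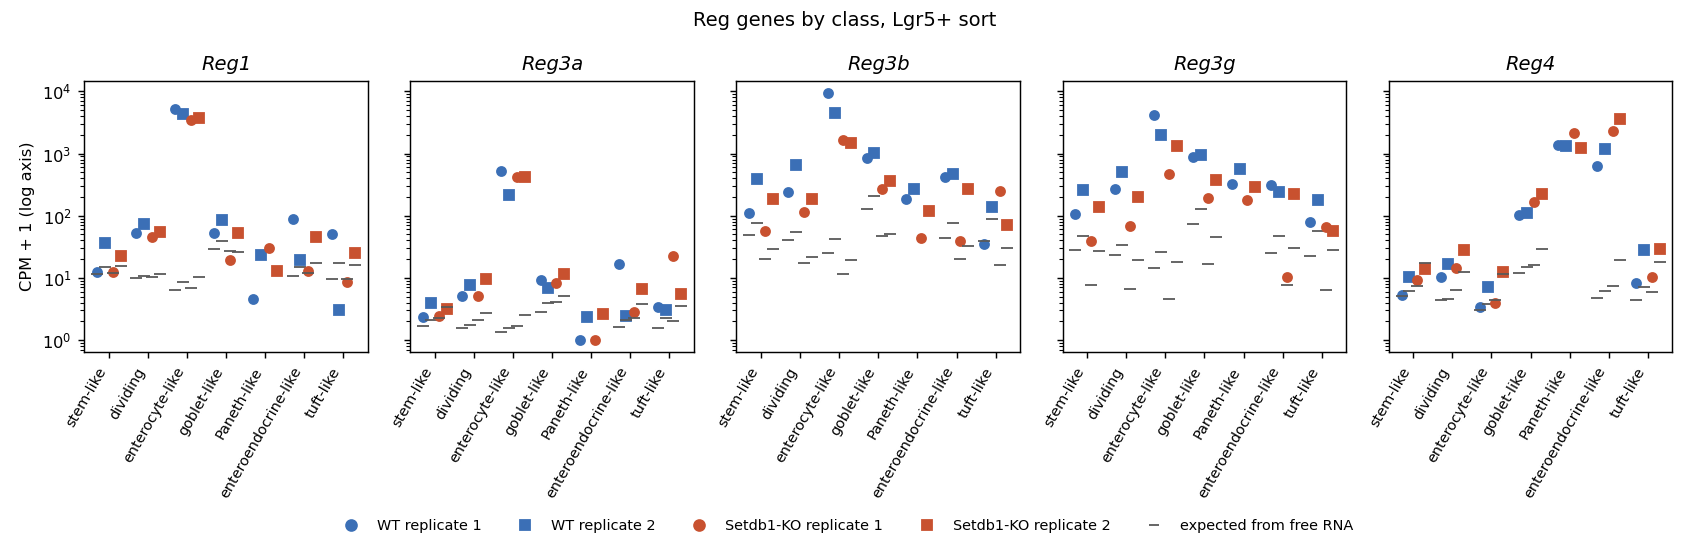
Level of each Reg gene by class in the Lgr5+ sort, as CPM + 1 on a log axis, one point per library (blue WT, red Setdb1-KO). Grey dashes give the level expected from free RNA, which was not computed for Paneth-like cells. Reg1 and Reg3a peak in enterocyte-like cells (3421 to 5204 and 215 to 524 CPM), and Reg4 in enteroendocrine-like and Paneth-like cells (640 to 3570 and 1214 to 2154 CPM).

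Lgr5+ barcodes that were stem-like, dividing, enterocyte-like or in no class, with goblet-like, Paneth-like, enteroendocrine-like, tuft-like, immune-like and mixed barcodes left out, were also ordered by their share of enterocyte-marker UMIs. Below 10 such UMIs per 10000, Reg1 stood at 14.0 and 18.8 CPM in WT and 10.1 and 17.5 CPM in Setdb1-KO. It reached 103 and 78.4 CPM against 17.2 and 46.2 CPM at 10 to 30, and 1551 and 773 CPM against 356 and 511 CPM at 30 to 100. At these middle steps each WT library lay above each Setdb1-KO library, while in the lowest step the genotypes overlapped. Reg3a went from 2.87 to 5.18 CPM in the lowest step to 43.3 to 89.8 CPM at 30 to 100, with the genotypes overlapping throughout.

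Reg3b and Reg3g were also found in barcodes with few enterocyte markers. The steps order barcodes by marker share and not by time, with barcodes in no class among them. No level expected from free RNA is given for them. Below 10 marker UMIs per 10000 Reg3b stood at 410 and 1007 CPM in WT and 263 and 228 CPM in Setdb1-KO, and at 30 to 100 at 1415 and 1611 CPM against 550 and 783 CPM. Reg3g stood at 286 and 671 CPM against 106 and 247 CPM in the lowest step and at 1239 and 1109 CPM against 190 and 695 CPM at 30 to 100. At all 4 steps, the WT libraries lay above the Setdb1-KO libraries for both lectins. Reg4, whose leading classes were left out here, went from 13.8 to 26.7 CPM in the lowest step to 2.41 to 11.2 CPM in the highest.

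**Figure D3:**
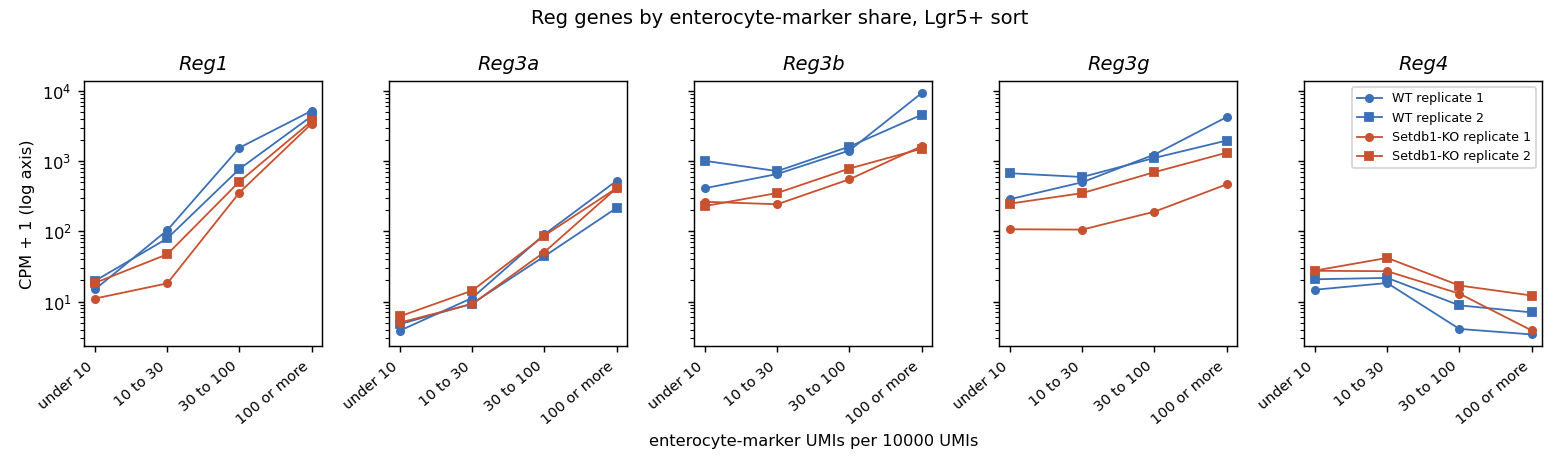
Level of each Reg gene (CPM + 1, log axis) in 4 steps of enterocyte-marker UMIs per 10000 UMIs, Lgr5+ sort without goblet-like, Paneth-like, enteroendocrine-like, tuft-like, immune-like and mixed barcodes, one line per library (blue WT, red Setdb1-KO, circles replicate 1, squares replicate 2). Reg1 goes from 10.1 to 18.8 CPM in the lowest step to 3421 to 5204 CPM in the highest, and Reg3b is lower in Setdb1-KO at each step.

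Enterocyte-like cells were also divided at the median of their upper villus markers (Apoa4, Ada, Nt5e and others). Reg3b stood at 2170 and 1862 CPM in the lower part and at 15540 and 7363 CPM in the upper part in Lgr5+WT, and at 280 and 635 CPM against 2915 and 2425 CPM in Lgr5+Setdb1KO. It was thus higher in the part rich in these markers in all 4 libraries, and lower in Setdb1-KO in both parts. Reg1 stood at 3177, 2112, 2012 and 2948 CPM in the lower part and 6981, 6707, 4764 and 4531 CPM in the upper part. Divided instead at the median of lower villus markers (Nlrp6, Lypd8, Gsta1 and others), Reg1 was at 1576, 1478, 653 and 1415 CPM below and 8815, 7547, 6029 and 6236 CPM above. Reg1 was thus higher in cells rich in either list. Reg3b had no common direction over the lower villus markers, at 13720, 3455, 1203 and 1623 CPM below and 4895, 5781, 2033 and 1364 CPM above, so that a split on 1 list gives no position along the villus.

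Within classes of the Lgr5+ sort Reg3b was lower in enterocyte-like and goblet-like cells of Setdb1-KO libraries. Both classes may include the co-purifying cells without GFP, in which deletion was not checked here. Of 32 pairs of member and class tested, these 2 passed, but the count depended on the fit, with 5 to 16 past the threshold without one library, 14 with the replicate block, 15 with no filter on low counts and 6 without TMM. Reg3b fell by 2.165 ± 0.258 on the log2 scale in enterocyte-like cells (edgeR adjusted p = 0.00463, where 0.289% of 7966 genes passed) and in goblet-like cells it fell by 1.575 ± 0.19 (adjusted p = 0.0119, where 0.243% of 9883 did). Both passed in each of the 14 alternatives run, with values from -2.57 to -1.60 and from -1.80 to -1.38.

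The other members did not pass in those classes. Reg3g was at -1.80 ± 0.43 in enterocyte-like (adjusted p = 0.202) and -1.66 ± 0.274 in goblet-like cells (0.0552), and the goblet-like value passed in 12 of 14 alternatives. Reg1 was at -0.45 ± 0.146 in enterocyte-like cells (0.423) and Reg3a at 0.17 ± 0.289 (0.924). The higher Reg3a over all Lgr5+Setdb1KO barcodes thus stood beside no difference found in these cells. Their share of barcodes was 9.47% and 4.10% in Setdb1-KO against 1.97% and 4.305% in WT, which overlap, with only Setdb1-KO replicate 1 above both WT libraries. Whether the share of cells accounts for the higher Reg3a was not tested.

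Reg4 was higher in enteroendocrine-like cells of Lgr5+Setdb1KO without overlap, but at 1.69 ± 0.341 it missed the threshold (adjusted p = 0.0974, where 0.157% of genes passed), as it did in goblet-like cells (0.92 ± 0.178, adjusted p = 0.113) and Paneth-like cells (0.66 ± 0.31, adjusted p = 0.996, where 0.347% passed). Enteroendocrine-like cells made up 2.22% and 2.77% of Lgr5+WT and 6.67% and 4.01% of Lgr5+Setdb1KO barcodes, and held 15.4% and 26.7% against 56.5% and 40.5% of all Reg4 UMIs. In stem-like (0.499%), dividing (0.934%) and tuft-like cells (0.0531% of genes passed) no member passed, and Reg3b was at -1.04 ± 0.576, -1.58 ± 0.405 and 0.81 ± 0.573 there.

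**Figure D4:**
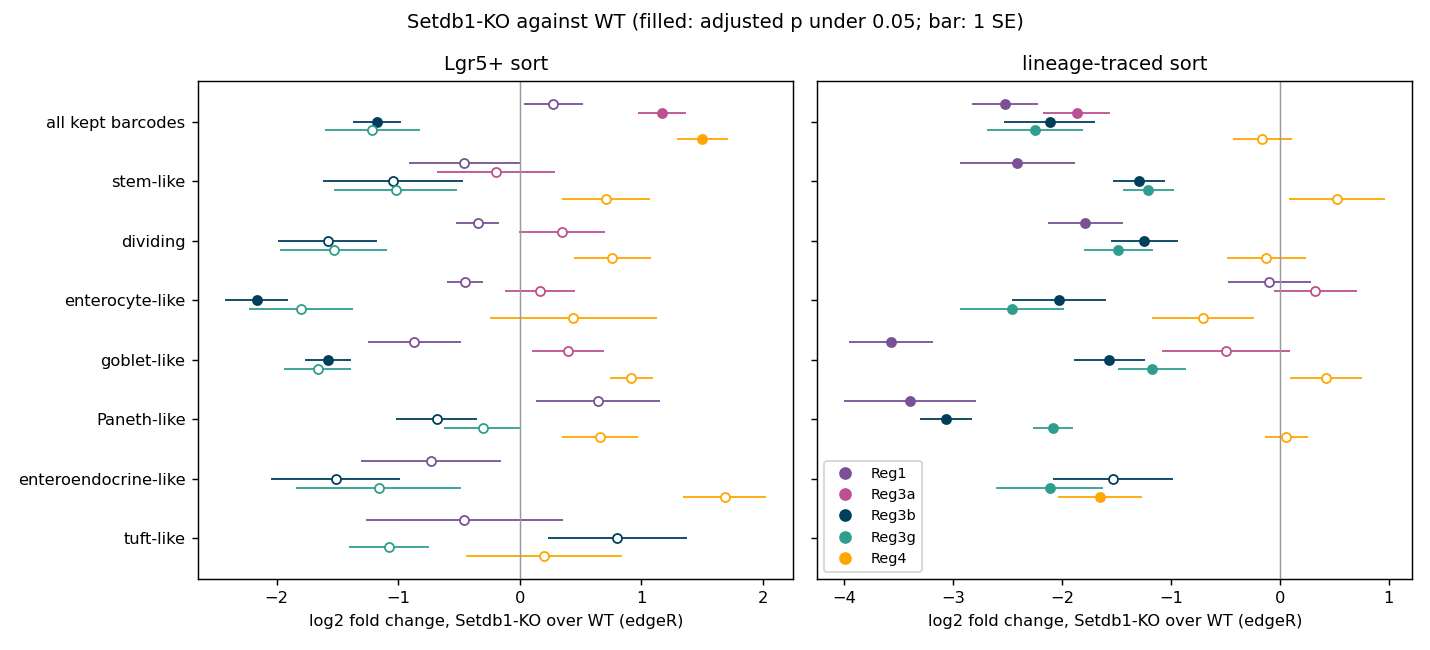
Log2 fold change of each Reg gene, Setdb1-KO over WT, over all kept barcodes and within classes (edgeR, bars 1 SE, filled where adjusted p is under 0.05), Lgr5+ sort left and lineage-traced sort right, with different x ranges. In the Lgr5+ sort the filled within-class points are Reg3b in enterocyte-like (-2.165) and goblet-like cells (-1.575), while in the lineage-traced sort 16 within-class points are filled, all below 0.

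Among lineage-traced classes Reg1 stood at 1264 and 990 CPM in WT and 842 and 1214 CPM in Setdb1-KO enterocyte-like cells, and Reg3a at 142 and 244 CPM and 207 and 245 CPM, both above every other class (at most 177 and 19.6 CPM). Reg3b stood at 4226 and 6328 CPM in WT and 946 and 1575 CPM in Setdb1-KO enterocyte-like cells (free RNA would give 301, 625, 46.2 and 54.8 CPM). Reg3g stood there at 3534 and 7488 CPM and 650 and 1273 CPM. In goblet-like cells it stood at 2958 and 4189 CPM and 1337 and 1949 CPM, which overlapped the enterocyte-like range. Reg4 was highest in enteroendocrine-like cells, at 4358 and 6230 CPM in WT and 2389 and 1572 CPM in Setdb1-KO, ahead of Paneth-like (171 to 282 CPM) and goblet-like cells (69.6 to 120 CPM).

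Against stem-like cells, 11 pairs of member and class of 25 were higher and 1 lower in the lineage-traced sort. Enterocyte-like cells exceeded stem-like cells by 5.61 ± 0.438 for Reg1, 5.94 ± 0.414 for Reg3a, 2.72 ± 0.296 for Reg3b and 2.47 ± 0.257 for Reg3g on the log2 scale (43.4% of 5987 genes passed), and Reg4 by 5.64 ± 0.324 in enteroendocrine-like cells (16.2%), all with edgeR adjusted p of at most 9.85e-11. Reg3g was lower in enteroendocrine-like cells (-0.85 ± 0.293, adjusted p = 0.0381), but missed the threshold without TMM (0.279) and without WT replicate 1 (0.124), Setdb1-KO replicate 1 (0.208) or Setdb1-KO replicate 2 (0.0973). In goblet-like cells 3 members rose (32.1% of genes passed), Reg3b by 1.55, Reg3g by 2.445 and Reg4 by 1.15 (the last lost without Setdb1-KO replicate 2, adjusted p = 0.184, and without TMM, 0.0502), and in dividing cells none passed (14.7%). In Paneth-like cells Reg3g (2.43), Reg4 (4.28) and Reg3a (1.97, adjusted p = 0.0464) passed (14.3%), but Reg3a lost its call without any 1 library (0.0705 to 0.24), Reg3g without TMM (0.854), and Reg3a was at -0.44 and Reg4 at 1.96 without TMM, where the median of all genes stood at -2.50. Reg3b (0.61 with TMM) and Reg1 (1.36), which had not passed, were lower than in stem-like cells without it, at -1.83 (adjusted p = 5.66e-08) and -1.13 (0.0489). Reg3a had few UMIs, 3, 1, 1 and 0 in stem-like and 16, 8, 0 and 2 in Paneth-like cells (WT, then Setdb1-KO). Its CPM was lower in Paneth-like than stem-like cells in WT (2.29 and 5.455 against 8.52 and 11.5). In Setdb1-KO it was 0 and 2.77 against 2.48 and 0. The same stem-like counts underlie the 5.94 of Reg3a in enterocyte-like cells.

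**Figure D5:**
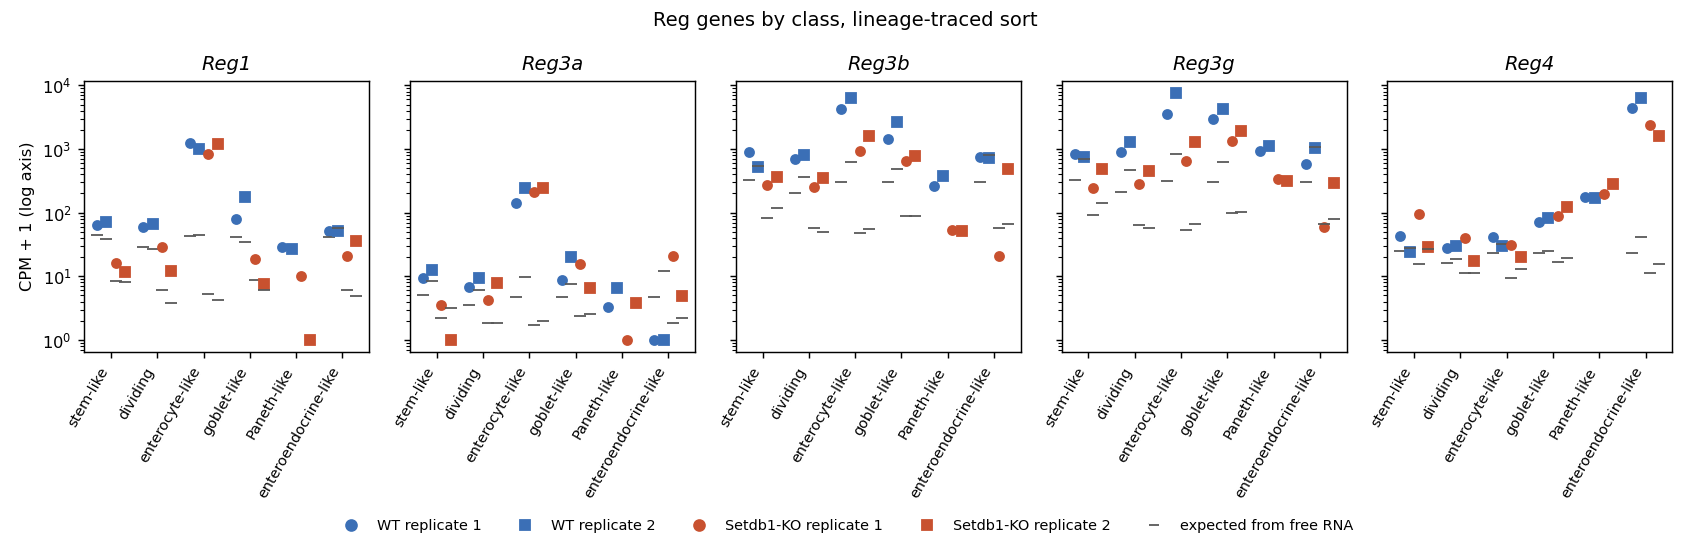
Level of each Reg gene by class in the lineage-traced sort, as CPM + 1 on a log axis, one point per library (blue WT, red Setdb1-KO), with grey dashes for the level expected from free RNA. Reg3b falls from 4226 and 6328 CPM in WT to 946 and 1575 CPM in Setdb1-KO enterocyte-like cells, while Reg1 stays between 842 and 1264 CPM there.

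Within lineage-traced classes, Reg3g passed as lower in Setdb1-KO in each of the 6 classes and Reg3b in 5 of 6. Reg1 passed as lower in the 4 classes other than enterocyte-like cells in which it was tested. In enteroendocrine-like cells Reg3b was lower too but missed the threshold (-1.53 ± 0.548, edgeR adjusted p = 0.125). Of 25 pairs of member and class tested 16 passed, all of them lower, and 16 passed without TMM too. In enterocyte-like cells Reg3b fell by 2.03 ± 0.434 and Reg3g by 2.46 ± 0.477 (edgeR adjusted p = 0.00142 and 0.00058), where 36.0% of 4010 genes passed. Reg1 (-0.096 ± 0.379, adjusted p = 0.855) and Reg3a (0.33 ± 0.381, adjusted p = 0.514) did not pass there. Without WT replicate 1 the Reg3b call was lost (0.0583), and without WT replicate 2 both were (0.32 and 0.271), and Setdb1-KO replicate 1 had 34 enterocyte-like cells.

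In goblet-like cells (2.27% of 6374 genes passed) Reg1 fell by 3.57 ± 0.385, Reg3b by 1.56 ± 0.322 and Reg3g by 1.175 ± 0.31 (adjusted p = 2.2e-17, 0.00012 and 0.00813). Goblet-like Reg1 went from 77.5 and 177 CPM to 18.0 and 6.68 CPM, where free RNA would give 41.1, 33.7, 7.87 and 5.10 CPM. In Paneth-like cells (2.07% passed) Reg3b fell by 3.065 ± 0.239 and Reg3g by 2.08 ± 0.182. Both stood there under their levels in free RNA, Reg3b at 266, 382, 52.3 and 51.2 CPM against 1239, 1819, 560 and 531.5 CPM and Reg3g at 944.5, 1098, 334 and 317 CPM against 1271, 2384, 637 and 631 CPM, and no expected level could be set for a class defined by defensins. Paneth-like Reg1 stood at 28.3 and 25.9 CPM in WT (198 and 38 UMIs) and 9.10 and 0 CPM in Setdb1-KO (4 and 0 UMIs), all under its level in free RNA (171, 128, 51.0 and 31.4 CPM). It passed in edgeR (-3.39 ± 0.605, adjusted p = 0.00664) and not in DESeq2 (adjusted p = 1.0). In stem-like cells (1.52%) Reg1 fell by 2.41 ± 0.528, Reg3b by 1.295 ± 0.241 and Reg3g by 1.21 ± 0.238, and in dividing cells (1.27%) by 1.785 ± 0.343, 1.24 ± 0.308 and 1.48 ± 0.316. Several of these calls rested on single libraries or on the fit. DESeq2 gave an adjusted p of 0.307 for stem-like Reg1 and 0.0633 for goblet-like Reg3g, which was at 0.134 with no filter on low counts. With a marker cut 2 times higher it was 0.901 for dividing Reg1 and 0.0703 for stem-like Reg3b, and with at least 1000 UMIs per barcode 0.0624 for stem-like Reg3g. Without WT replicate 1, the adjusted p was 0.89, 0.89 and 0.382 for stem-like Reg1, Reg3b and Reg3g, 0.587 and 0.0836 for dividing Reg3b and Reg3g and 0.359 for goblet-like Reg3g. Without WT replicate 2 it was 0.892 and 0.855 for dividing and 0.863 and 0.962 for goblet-like Reg3b and Reg3g. Without Setdb1-KO replicate 1 it was 0.0673 for stem-like and 0.099 for goblet-like Reg3g, and without Setdb1-KO replicate 2 it was 0.192 for Paneth-like Reg1. Goblet-like Reg1 and Paneth-like Reg3b and Reg3g passed without each library in turn, but a marker cut 2 times higher gave no Paneth-like comparison. Free RNA moved with these results. Stem-like Reg1 stood at 62.5, 69.1, 14.9 and 10.5 CPM, from only 22, 6, 6 and 5 UMIs, where free RNA would give 44.3, 37.5, 7.32 and 7.02 CPM. Stem-like Reg3b of lineage-traced WT replicate 2 stood at 530 CPM where free RNA would give 533 CPM. The part of free RNA in these falls was not tested.

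In enteroendocrine-like cells (4.33% of 763 genes passed) Reg4 and Reg3g fell, by 1.65 ± 0.384 and 2.11 ± 0.494 (edgeR adjusted p = 0.00649 for each). Thinned to 500 UMIs, 35.4% and 36.4% of these cells held Reg4 in WT and 10.3% and 14.9% in Setdb1-KO (unthinned 39.6%, 40.9%, 15.4% and 23.8%, median depths 1046, 794, 775 and 1687 UMIs), against 0.775% to 2.94% of enterocyte-like cells (3.73% to 5.88% unthinned, median depths 932.5 to 3391). This is the opposite direction to the values of the Lgr5+ sort. The class held only 22 to 101 cells per library, and the Reg4 call was lost without WT replicate 2 (adjusted p = 0.223) or Setdb1-KO replicate 2 (0.798), as was that of Reg3g (0.131 and 0.492), which was also lost without Setdb1-KO replicate 1 (0.084). Both were lost with no filter on low counts (0.871 for each) and with at least 1000 UMIs per barcode (0.392 for Reg4, 0.588 for Reg3g), and Reg3g with a marker cut 2 times higher (0.174) and with barcodes given to their highest class (0.0856). Enteroendocrine-like Reg3g stood at 574 and 1021 CPM in WT and 58.7 (3 UMIs) and 290 CPM in Setdb1-KO, where free RNA would give 306, 1062, 64.2 and 78.7 CPM, so that 1 library of each genotype was at the free RNA level. Lineage-traced barcodes in no class went the other way for Reg4, which was not tested in them, with 66.5 and 73.1 CPM in WT and 209.8 and 111 CPM in Setdb1-KO. They held 23.6% and 44.2% of Reg4 UMIs in WT and 76.9% and 68.2% in Setdb1-KO.

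The 2 sorts were compared in 1 model. The effect of Setdb1-KO in the lineage-traced sort minus that in the Lgr5+ sort was -2.77 ± 0.4 for Reg1, -2.99 ± 0.4 for Reg3a and -1.65 ± 0.342 for Reg4 (edgeR adjusted p = 0.00114, 0.000693 and 0.0122), so that 3 of 5 members passed where 7.58% of 13781 genes did. Reg1 and Reg3a passed in each of 15 alternatives. Reg4 passed in 12, and was lost without Lgr5+WT replicate 1 (0.0768), Lgr5+Setdb1KO replicate 2 (0.0543) or lineage-traced WT replicate 1 (0.0656). Plain totals put the median of all genes at 0.556 in this comparison. For Reg3b (-0.92 ± 0.482, adjusted p = 0.295) and Reg3g (-1.01 ± 0.631, adjusted p = 0.382) a difference between the sorts was not found. Sort is bound up with mouse line, depth and free RNA here, and these cannot be told apart.

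Genes of the pathways that act on Reg3 lectins, and other defence genes, were read beside the members. Of the interleukin-22 receptor and STAT3 list, 0 of 15 measured genes passed in the Lgr5+ sort by edgeR (median log2 fold change -0.0465, against -0.00577 over all genes, of which 1.34% passed; 2388 of all genes had an unadjusted p under 0.05). In the lineage-traced sort 2 of 15 fell, Stat3 (-0.80, adjusted p = 0.0437) and Socs3, its feedback inhibitor (-1.07, adjusted p = 0.0494), with a median of -0.414 against 0.0114 and 7.19% of all genes lower, which is near this count. Within lineage-traced enterocyte-like cells 3 of 7 fell, with Stat3 at -2.19 ± 0.506 (adjusted p = 0.00248), Jak2 at -1.80 and Bcl3 at -1.71, where 20.6% of all genes were lower. In Lgr5+ enterocyte-like cells, where Reg3b fell, none of 8 passed (median -0.0999), as did only 0.289% of all genes.

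Over all genes 0.527% were called lower in the Lgr5+ sort, and 7.19% lower and 1.54% higher in the lineage-traced sort, which are the shares to set beside the following counts. Of the microbial sensing list 1 of 16 fell in the Lgr5+ sort, Nfkbiz, an inducible partner of NF-kB (-0.84 ± 0.105, adjusted p = 0.0221), and 2 of 15 in the lineage-traced sort, the cytokine Il18 (-1.64) and the inflammasome receptor Naip1 (-1.08). Of other epithelial defence genes, 2 of 18 fell in the Lgr5+ sort, the siderophore-binding protein Lcn2 (-3.34 ± 0.372, adjusted p = 0.0166) and the nitric oxide synthase Nos2 (-3.04 ± 0.399, adjusted p = 0.0248). Of the lineage-traced values 9 of 17 fell, led by Sprr2a3 (-4.14), Mptx2 (-3.83), Ang4 (-2.59) and Saa1 (-2.88), and 2 rose, the goblet cell product Retnlb (2.745) and Mptx1 (2.28), with a median of -1.03. Ang4 and Mptx2 are Paneth cell products and moved with the defensins.

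In the test of the difference between the sorts, 8 of 8 upper villus genes passed as lower (median -3.56), where 6.07% of all genes did, and of 8 lower villus genes 1 was higher and 3 lower (median -0.743). Upper villus genes were 8 of 8 lower in the lineage-traced sort (median -3.53), led by Ada, Apoa4, Slc28a2 and Creb3l3 at -5.44, -5.795, -4.07 and -3.36, and 7 of 7 lower within its enterocyte-like cells (median -3.59), where lower villus genes had 4 higher and 2 lower of 8 (median 0.832). Of all genes tested in those cells 20.6% were lower and 15.4% higher. The enterocyte-like cells compared between lineage-traced genotypes thus differed in the genes of these lists, of which Apoa4 is also an enterocyte marker of the class. The part of that difference in the falls of Reg3b and Reg3g was not tested. Over all Lgr5+ barcodes Apoa4 rose (1.24) and Slc28a2 fell (-1.88) among 7 upper villus genes, and Gstm3 rose (1.14) among 8 lower villus genes. In the Lgr5+ enterocyte-like cells none of 5 upper villus genes passed (median -0.101), where 0.289% of all genes did, and so few genes cannot tell whether villus position differed.

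The genes most alike to each member over class-by-library sums were found as a description, with no test, over sums that share libraries and depth (28 sums of 6946 genes in the Lgr5+ sort, 27 of 6692 in the lineage-traced sort, Pearson's r of log2(CPM + 10)). Reg3b and Reg3g were each other's nearest gene in the Lgr5+ sort (r = 0.890), where Bcl2l15, Edn2, Il17rc (an interleukin-17 receptor subunit) and Adh6a came next for Reg3b (r from 0.867 to 0.850) and Adh6a, Aoc1, Clec2h and Bcl2l15 for Reg3g (r from 0.778 to 0.738). In the lineage-traced sort Reg3b was again nearest to Reg3g (r = 0.882), and Dgat1 (r = 0.883) was nearest to Reg3b. Reg1 was nearest to Mpp1 (0.972), Ces1f, Apol10a, Slc26a6 and the brush border enzyme Alpi, and Reg3a to Dpep1 (0.987), Slc51b, Apoa1, Alpi and Ugt2b5, where Alpi and Apoa1 belong to the enterocyte markers. The nearest lineage-traced genes were Rbp2, Apoc3, Enpep, Ces2c and Adh6a for Reg1 (0.957 to 0.916) and Creb3l3, Sult2b1, Il18, Ace and Chp2 for Reg3a (0.903 to 0.8965). Reg4 was nearest to the Paneth cell Wnt ligand Wnt3 (0.936), then Pla2g2f, Bambi, Cxxc5 and 5330417C22Rik, in the Lgr5+ sort, and to Pla2g2f (0.956), Runx1t1, Nkx2-2, Tac1 and Bex2 in the lineage-traced sort.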

How the data were processed

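The deposited count tables, one per library, hold raw UMI counts of all barcodes that the authors made with Cell Ranger 6.1.1 on mm10 from 10x 3′ libraries, per the submitters' processing notes, which also name Seurat 5.0.3. The authors' own filters and doublet removal are not in these files. Total RNA-seq, chromatin and scATAC samples were not analysed here.

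From the counts, barcodes of 1000 (Lgr5+ sort) or 500 (lineage-traced sort) to 18000 UMIs with under 5% mitochondrial UMIs were kept. A barcode joined a class where its marker UMIs per 10000 reached a cut (stem-like 40, dividing 15, enterocyte-like 100 or, in the lineage-traced sort, 150, goblet-like 300, Paneth-like 1000 or 5000, enteroendocrine-like 60, tuft-like 30) with at least 3 UMIs from 2 markers. Stem-like gave way to dividing, and dividing to 1 differentiated class. Barcodes that met 2 or more differentiated rules were left out as mixed, the one treatment of doublets here. The goblet marker Spink4 was dropped from the sum after the data were seen. Classes needed 20 cells in each library. UMIs were summed per library and class and tested in edgeR 4.0.16 (quasi-likelihood, TMM, filterByExpr, Benjamini-Hochberg over all genes, threshold 0.05) with DESeq2 1.42.0 as an alternative, and the fits were tested on simulated data. For an exact permutation test of 2 against 2 libraries the smallest two-sided p is 0.3333, so none was used. Thinning drew 1000 or 500 UMIs per cell, which covers counting error only. The level expected from free RNA is the class's defensin share over that of barcodes with at most 100 UMIs, times the gene's level in those.

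The members and gene lists were chosen with earlier results of these data known. Named are the 5 members, which enter all comparisons where their counts allowed a test, though not every tested value is printed. Setdb1 is named as the check of genotype in comparisons of Setdb1-KO against WT. Also named are, per list, up to 4 called genes in each direction with the smallest adjusted p, and per member the 5 genes with the highest correlation. Upstream windows come from RefSeq (GRCm38.p6), where 7 of 7 Reg genes matched. Scripts ran in Python 3.11.15 and R 4.3.3.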

Additional observations from a re-analysis of the deposited data

Results flagged for a closer look

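The effect of Setdb1-KO differed between the sorts, by the test of the difference itself, for 3 members. As lineage-traced minus Lgr5+ (log2, edgeR), the difference was -2.77 ± 0.4 for Reg1, which was lower in both lineage-traced Setdb1-KO libraries than in both WT libraries and overlapped in the Lgr5+ sort. For Reg3a it was -2.99 ± 0.4, with both Setdb1-KO libraries above WT in the Lgr5+ sort and below WT in the lineage-traced sort. For Reg4 it was -1.65 ± 0.342, with both Setdb1-KO libraries above WT in the Lgr5+ sort and overlap in the lineage-traced sort. Enterocyte-like cells, in which Reg1 and Reg3a were highest, were 0.706% and 1.26% of lineage-traced Setdb1-KO barcodes against 11.6% and 6.21% in WT, and their part in the first 2 differences was not tested.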

How the results depend on the processing

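Of 1714 recomputed single values 1452 kept their direction and side of the threshold, 82 lost and 107 gained a call, and 73 (39 results) turned direction, 1 of them of a result called as reported. Where 1 library was left out, the lone library of its group was assumed to vary like the others. Where a change of count or direction is given, its cause was not tested.

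Members called over all Lgr5+ barcodes (3) became 0 with no filter on low counts, 1 with the replicate block and 1 to 3 without one library. For lineage-traced barcodes (4) they were 4 with the block and 2 to 4 without one library. Calls within Lgr5+ classes (2) became 6 without TMM, 15 with no filter, 14 with the block, 6 with a marker cut 2 times higher, 5 with barcodes given to their highest class and 5 to 16 without one library. Within lineage-traced classes (16) they became 10 with the higher cut, 17 with the block and 8 to 13 without one library. For the difference between sorts (3) they were 4 with the block and 2 to 3 without one library. Calls against stem-like cells (16 and 12) were 16 to 19 and 10 to 12 without one library, and 7 in the lineage-traced sort with the higher cut. The replicate numbers were not shown to pair libraries, since the replicate differences of WT and Setdb1-KO correlated at -0.0657 over 6573 genes in the Lgr5+ sort and 0.555 over 5703 genes in the lineage-traced sort, with 2 pairs each.

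The log2 values that turned direction were as follows. Without TMM, Reg4 over all lineage-traced barcodes became 0.40. Against stem-like cells without TMM, Reg3b, Reg3a and Reg1 in Lgr5+ Paneth-like cells became -0.18, -0.81 and -0.53, Reg3g in enteroendocrine-like 0.47, Reg1 in tuft-like 0.034, Reg3b in lineage-traced dividing -0.072 and Reg3b, Reg3a and Reg1 in lineage-traced Paneth-like -1.83, -0.44 and -1.13. With the higher cut, the Setdb1-KO effect became 0.47 for Reg1 in Lgr5+ stem-like, -0.034 for Reg3a in dividing and 0.37 for Reg1 in lineage-traced enterocyte-like cells, and against stem-like cells Reg4 in Lgr5+ enterocyte-like became 0.053, Reg3b and Reg3g in enteroendocrine-like -0.0069 and 0.019, Reg1 in tuft-like 0.16 and Reg3b in lineage-traced dividing -0.061. With the highest class, Reg1 in Lgr5+ enteroendocrine-like cells became 0.85. With Spink4 kept in the goblet sum, chosen after seeing the data, the Setdb1-KO effect became 0.42 for Reg3g in Lgr5+ and -0.15 for Reg4 in lineage-traced Paneth-like cells, and against stem-like cells Reg4 in Lgr5+ tuft-like became -0.055, Reg3b in lineage-traced dividing -0.064, Reg4 in enterocyte-like 0.51 and Reg1 in enteroendocrine-like -0.13. With the other lowest UMI count, Reg4 in lineage-traced stem-like cells became -0.62 and Reg3a in enteroendocrine-like against stem-like -0.70. The replicate block gave 0.092 for Reg4 in lineage-traced dividing cells, DESeq2 -0.043 for Reg3b in lineage-traced dividing against stem-like, and no filter and a mitochondrial limit of 10% gave -0.0051 and -0.17 for Reg3a in lineage-traced enteroendocrine-like against stem-like.

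Without one library in turn, the Setdb1-KO effect turned direction within these ranges. In the Lgr5+ sort these were Reg1 over all barcodes (-0.14 to 0.60), stem-like Reg3b (-2.17 to 0.24), Reg3a (-0.66 to 0.51) and Reg1 (-1.07 to 0.65), dividing Reg3a (-0.46 to 0.80), enterocyte-like Reg4 (-0.78 to 1.49) and Reg3a (-0.35 to 0.88), Paneth-like Reg3g (-1.21 to 0.17), enteroendocrine-like Reg1 (-2.06 to 0.62) and tuft-like Reg4 (-0.92 to 1.51), Reg3b (-0.32 to 2.27) and Reg1 (-1.60 to 2.90). In the lineage-traced sort these were Reg4 over all barcodes (-0.38 to 0.025), stem-like (-0.53 to 1.30), dividing (-0.60 to 0.40) and Paneth-like Reg4 (-0.36 to 0.28), enterocyte-like Reg3a (-0.27 to 0.71) and Reg1 (-0.85 to 0.32) and goblet-like Reg3a (-1.14 to 0.12). Against stem-like cells they were, in the Lgr5+ sort, Paneth-like Reg3a (-0.84 to 0.93), enteroendocrine-like Reg3b (-0.20 to 0.32), Reg3a (-0.13 to 1.30), Reg1 (-0.26 to 0.92) and Reg3g (-0.39 to 0.20) and tuft-like Reg3b (-1.65 to 0.11) and Reg1 (-0.9997 to 0.45), and in the lineage-traced sort dividing Reg3b (-0.042 to 0.16), Reg3a (-0.20 to 1.54) and Reg1 (-0.0092 to 0.40), enterocyte-like Reg4 (-0.74 to 0.31) and enteroendocrine-like Reg3a (-0.81 to 1.16) and Reg1 (-0.54 to 0.72).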
